A study of Mus musculus with 3 samples.

Results

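The comparison reported here was that of BMDMs, macrophages grown from mouse bone marrow, given CpG together with IFN-γ and αIL-10R (Triple) with BMDMs given CpG only. It used 2 of the 3 arrays of the series, chosen by their labels, and all spots that were not controls and not marked as outliers. On these arrays 33597 of 34821 gene names were measured. The cells came from C57BL/6J mice, whose age is not given in the sources used here, and were grown with M-CSF. They were then stimulated for 20 h with CpG (0.063 μg/ml) alone or together with αIL-10R and 100 U/ml of IFN-γ. αIL-10R is a blocking antibody against the IL-10 receptor. The other array of the series, of BMDMs given IFN-γ and αIL-10R without CpG, is printed beside these values, and entered the scaling and the choice of probes but no count. Because IFN-γ and αIL-10R were added together and no unstimulated array was used here, the share of either agent in a difference, or a change from resting cells, cannot be told apart. Each condition had 1 array, so that no difference below has a replicate check and no p-value can be given.

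CpG DNA is sensed by TLR9 in endosomes, which signals through MyD88 to NF-κB and leads macrophages to make inflammatory cytokines. IFN-γ binds its receptor on the cell surface and activates JAK kinases and STAT transcription factors, which drive IRF1, GTPases that attack intracellular microbes, and antigen presentation. IL-10 acts through STAT3 and restrains the output of Toll-like receptors in macrophages, and a blocked IL-10 receptor removes this restraint. The study asked which genes of BMDMs the cotreatment up-regulates, with the aim of finding receptors for the phagocytosis of live cells.

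Values are processed signals, the scanner software's background-subtracted intensities, and folds were computed after each array had been shifted by its 75th percentile. A gene is called higher, increased, or up-regulated if its signal in Triple was well above background and exceeded that of CpG more than 2-fold, and lower or decreased in the opposite case. A fold against a signal that was not well above background is a lower bound and is written as "at least". Probes with several spots gave the only measure of error, a technical SD of the log2 fold of 0.16 over all probes, 0.40 where signals were below 100, 0.14 between 100 and 1000, and 0.078 above 1000. These values cover the noise within an array and not the spread between cultures.

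In Triple, 1370 of 33597 genes (4.08%) were higher than in CpG, and 1529 genes (4.55%) were lower. These shares are the background for the counts of each list below, which were not tested against them. Increases reached further than decreases. More than 10-fold differences were found for 124 increased and 65 decreased genes, and more than 100-fold differences for 18 and 0 genes, respectively. For 358 of the increased and 389 of the decreased genes the fold is a lower bound, since CpG or Triple, respectively, gave no signal well above background. Of the genes well above background on both arrays (16276 genes), 72.7% were within 1.5-fold of each other, and their median log2 fold was −0.045. Within 2 technical SD of the threshold, with the SD over all probes (0.16) used for each gene, were 409 of the increased and 534 of the decreased genes. With an SD by signal this range would be wider for dim genes and narrower for bright ones. The median signal of the increased genes was 157 with CpG, 358 after IFN-γ + αIL-10R, and 764 in Triple, and that of the decreased genes was 492, 424, and 126 in the same order. Where a gene had further probes with signal, 58.9% of the 428 further probes of increased genes and 55.0% of the 440 further probes of decreased genes passed the same threshold in the same direction, and 6 and 7 passed it in the opposite direction.

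**Figure D1:**
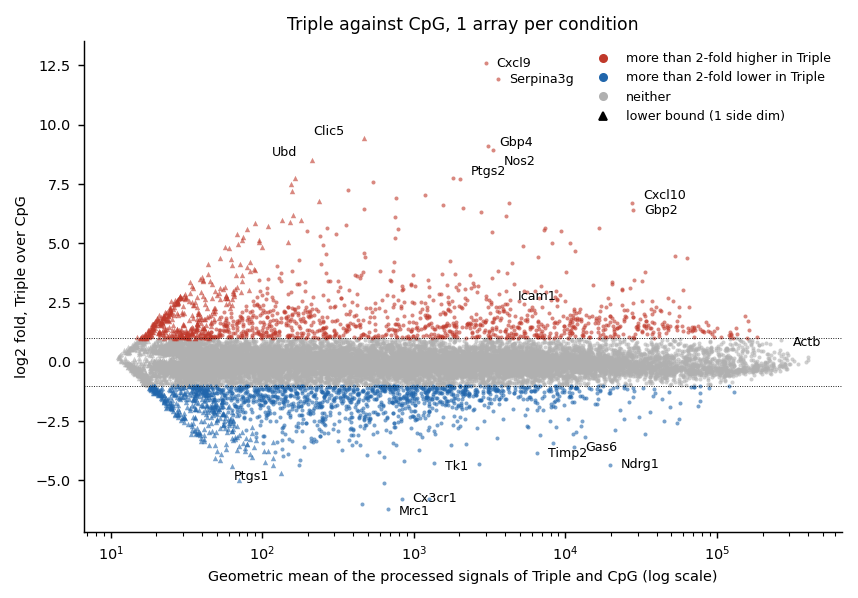
Log2 fold of Triple over CpG (vertical axis) against the geometric mean of the 2 processed signals (horizontal axis, log scale) for the 18335 genes well above background on at least 1 of these arrays. Red points are the 1370 increased genes, blue points the 1529 decreased genes, grey points all others, triangles lower bounds, and dotted lines the 2-fold threshold; the increases of Cxcl9 and Serpina3g lie far above the rest, whereas the decreases end at Mrc1.

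The genes increased most from a measurable signal encoded a chemokine, a protease inhibitor, GTPases, and inflammatory enzymes. Cxcl9, an IFN-γ-induced chemokine that attracts activated T cells, had a signal of 38.6 with CpG, 14431 after IFN-γ + αIL-10R, and 230855 in Triple, a 6215-fold increase over CpG. Serpina3g, a serine protease inhibitor of the serpin family, had signals of 58.9, 102135, and 219645 in the same order. For both genes the CpG signal was close to the lower end of the measurable range, where the technical SD was largest. Cxcl9 was higher in Triple than in either other condition, by 12.60 (log2) over CpG, and a further probe of the gene gave 11.56. Gbp4, a guanylate-binding protein, rose 542-fold, from 136 to 70865. Nos2, the inducible nitric oxide synthase, rose 487-fold, from 155 with CpG to 72449 in Triple, while IFN-γ + αIL-10R gave only 448. Ptgs2, the inducible cyclooxygenase, followed the same order, with 142, 513, and 29014 (10 spots per array, 212-fold). Nos2 and Ptgs2 were therefore bright only where all agents were present, unlike Gbp4, whose signal with IFN-γ + αIL-10R was 29413.

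The other genes among the 15 largest measured increases were the uridine phosphorylase Upp1 (217-fold), the actin-binding calponin Cnn3 (189.8-fold), the IL-12 receptor subunit Il12rb1 (150.5-fold), Gbp11 (132-fold), Il12b (119-fold), Cxcl10 (105-fold), Gbp5 (103-fold), Fam26f (90.5-fold), Tgtp1 (88.2-fold), and Gbp2 (84.2-fold). Further probes gave smaller log2 folds for Upp1 (4.13, against 7.76) and Gbp5 (1.84, against 6.69). The CpG signals of Il12rb1 (30.7), Cnn3 (40.1), and Tgtp1 (51.4) were, like that of Cxcl9, close to the lower end of the measurable range. Cnn3 had nearly the same signal in Triple (7323) as with IFN-γ + αIL-10R (7121). Il12rb1 was brighter with IFN-γ + αIL-10R (18294) than in Triple (4446), a further probe gave a log2 fold of 3.04, and its only spot, like that of Gbp2, lay in the first 48 of the 384 rows of the array. Genes with their only spot in those rows were called increased in 5.00% of cases and genes with their only spot elsewhere in 3.89%, and the part of this difference in single genes was not tested. Among the genes that were not well above background with CpG, the largest lower bounds were those of Clic5, an intracellular chloride channel protein (at least 691-fold, 15783 in Triple), Ubd, a ubiquitin-like modifier also called FAT10 (at least 365-fold), Serpina3f (at least 183-fold), Serpina3i (at least 147-fold), Inhba, the activin A subunit (at least 109.8-fold), Mab21l3 (at least 72.1-fold), the Wnt receptor Fzd1 (at least 64.1-fold), and the arginine transporter Slc7a2 (at least 62.8-fold). Inhba and Fzd1 were also not well above background with IFN-γ + αIL-10R, so that Triple was the only array with a measurable signal. Clic5 had a signal of 5045 with IFN-γ + αIL-10R. The bound of Mab21l3 rests on its brightest probe, since a further probe gave a log2 fold of 0.29.

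The stretches before the start sites of 5 genes described below are printed because their genes moved with the interferon, NF-κB, adhesion, and DNA replication groups and because they hold letters of the motifs of these pathways. They are the 250 bases before the start site of the transcript, 5′ to 3′ along the gene, from RefSeq (GRCm38.p6). Capitals mark matches of the motifs GAS (TTCNNNGAA, bound by STAT factors), ISRE (TTTC, any 2 bases, and TTTC, bound by IRFs), NF-κB (GGG, any 2 bases, TT, any base, and CC), and E2F (TTTNGCGC) on either strand.
Cxcl9 (chr5:92328080-92328329, minus strand): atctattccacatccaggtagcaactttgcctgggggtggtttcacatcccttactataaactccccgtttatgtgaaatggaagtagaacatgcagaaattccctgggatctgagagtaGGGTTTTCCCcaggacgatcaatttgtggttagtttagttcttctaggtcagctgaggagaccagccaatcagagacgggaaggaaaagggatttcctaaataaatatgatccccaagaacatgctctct
Cxcl10 (chr5:92348890-92349139, minus strand): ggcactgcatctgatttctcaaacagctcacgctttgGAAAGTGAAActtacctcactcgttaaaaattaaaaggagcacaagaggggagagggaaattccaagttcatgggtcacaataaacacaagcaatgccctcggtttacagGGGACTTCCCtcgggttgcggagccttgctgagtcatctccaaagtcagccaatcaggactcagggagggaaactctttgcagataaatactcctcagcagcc
Gbp5 (chr3:142496684-142496933, plus strand): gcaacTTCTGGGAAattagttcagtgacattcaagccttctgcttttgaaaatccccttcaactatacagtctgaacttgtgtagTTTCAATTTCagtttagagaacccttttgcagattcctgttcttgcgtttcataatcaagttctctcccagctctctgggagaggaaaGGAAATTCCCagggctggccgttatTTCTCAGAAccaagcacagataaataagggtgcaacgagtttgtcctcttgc
Icam1 (chr9:21015690-21015939, plus strand): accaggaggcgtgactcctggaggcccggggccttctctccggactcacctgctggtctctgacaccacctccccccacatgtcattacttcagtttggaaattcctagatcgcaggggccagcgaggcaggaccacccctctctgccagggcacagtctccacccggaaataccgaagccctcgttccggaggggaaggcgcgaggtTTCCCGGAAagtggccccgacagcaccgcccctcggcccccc
Mcm5 (chr8:75109259-75109508, plus strand): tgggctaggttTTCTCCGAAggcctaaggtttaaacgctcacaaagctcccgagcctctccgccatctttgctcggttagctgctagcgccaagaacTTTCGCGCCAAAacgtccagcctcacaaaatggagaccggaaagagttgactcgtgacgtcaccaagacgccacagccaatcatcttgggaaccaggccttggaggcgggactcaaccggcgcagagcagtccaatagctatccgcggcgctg
The Cxcl9 stretch held 1 NF-κB match, the Cxcl10 stretch 1 ISRE and 1 NF-κB match, and the Icam1 stretch 1 GAS match, whose first base lies 42 bases before the start site. The Gbp5 stretch held 2 GAS matches, 1 ISRE match, and 1 NF-κB match. In Mcm5, a subunit of the replicative helicase, 2 E2F matches overlapped, and 1 GAS match lay farther upstream. A match is a run of letters, and no binding was measured.

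Over windows from 250 bases before to 50 bases after the start site, an ISRE match was found for 10.1% of 743 increased genes with a RefSeq window, compared with 3.99% of all 27025 genes with a window and 3.69% of 7935 genes that were within 2-fold. A GAS match was found for 10.5%, compared with 9.55% and 8.39%, and an NF-κB match for 8.34%, compared with 5.48% and 6.45%. Among the 1015 decreased genes with a window the shares were 2.96% for ISRE, 6.4% for GAS, and 7.98% for NF-κB, the last of which was close to that of the increased genes. Among the 67 genes increased more than 10-fold, these shares were 19.4% for ISRE, 17.9% for GAS, and 19.4% for NF-κB. E2F letters were found for 4.24% of the decreased genes, for 1.35% of the increased genes, for 2.73% of the genes within 2-fold, and for 1.57% of all genes. In the list of GTPases, 10 of 11 genes with a window held an ISRE match and 6 a GAS match, and in the list of DNA replication genes 10 of 29 held an E2F match, while 1 of 30 mitosis genes did. A gene may have several start sites, 1.29 on average among the increased and 1.28 among the decreased genes, and was counted if any of its windows held the motif.

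**Figure D2:**
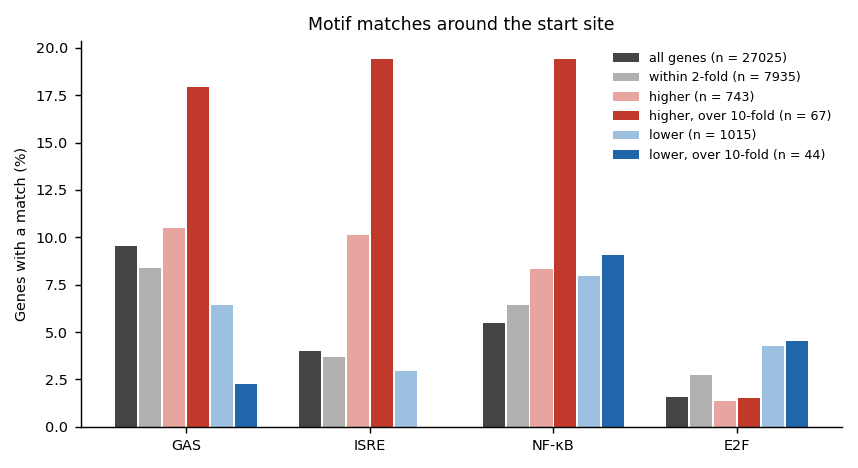
Share of genes (%) with at least 1 match of each motif in the window from 250 bases before to 50 bases after a RefSeq start site. Bars are groups of genes by their fold of Triple over CpG, with the number of genes that have a window; ISRE and NF-κB letters are each found for 19.4% of the genes increased more than 10-fold.

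The GTPases of the GBP and IRG families, which bind to and disrupt vacuoles that hold intracellular pathogens, were the list with the largest median. All 19 of its 19 measured members were higher in Triple, with a median log2 fold of 5.21, while the median over the 18335 genes well above background on at least 1 array was −0.057. Signals of Gbp2 were 3111 with CpG, 239515 after IFN-γ + αIL-10R, and 252036 in Triple, those of Gbp5 427, 24997, and 42499 (a further probe gave a log2 fold of 1.84), and those of Iigp1, an immunity-related GTPase, 487, 29937, and 33679. In each of these genes CpG alone gave by far the lowest signal, and the other arrays stood much closer to each other. The smallest increase of the list was that of Irgm2 (3.78-fold), a regulator of the other GTPases. On the chromosomes these genes are neighbours, and the array's annotation (mm9) places the probes of 6 increased GBP genes on chromosome 5 from 105443951 to 105752204, where they were 6 of 6 gene symbols, and those of 5 on chromosome 3 from 142184779 to 142300778, where they were 5 of 5. These spans were drawn around the increased genes, so that the shares are descriptions. GBP paralogs are similar in sequence, and probes may share transcripts.

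The receptor and signaling genes of IFN-γ moved less uniformly. Of 20 measured members of the JAK-STAT list, 8 were higher and 0 lower (median log2 fold 0.95). Socs1, a feedback inhibitor of JAK kinases, rose 49.9-fold, with signals of 1059, 40651, and 50881 for CpG, IFN-γ + αIL-10R, and Triple. Irf1, a transcription factor induced by IFN-γ, rose 14.0-fold to 123964, close to the signal with IFN-γ + αIL-10R (132675). Further increases were those of Batf2 (32.7-fold), Irf8 (4.6-fold), Jak2 (3.84-fold), Socs3 (3.14-fold), and Stat3 (2.94-fold). Both chains of the IFN-γ receptor stayed within 2-fold, Ifngr1 at −0.72 (log2) and Ifngr2 at 0.14. Interferon-induced antiviral genes were higher for 16 and lower for 0 of 26 members (median 1.08), among them Mx1 (6.21-fold), a GTPase against influenza viruses, Ifit2 (4.54-fold), and the ubiquitin-like Isg15 (2.65-fold). In this list CpG alone already gave high signals, 83557 for Isg15 and 3616 for Mx1. Ifnb1, which encodes interferon-β, was measurable only in Triple, where its signal was 173 (only spot in the first 48 rows).

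Genes of antigen presentation were higher in Triple for part of each list. In the MHC class II list, 7 of 14 measured members were higher and 0 lower (median 1.91). H2-Oa, a chain of the peptide loading regulator H2-O, was in front (45.8-fold). Its CpG signal (29.7) was close to the lower end of the measurable range. The class II chains H2-Eb1 (9971 with CpG, 201431 after IFN-γ + αIL-10R, 101911 in Triple) and H2-Ab1 (21210.1, 217861, 166997) rose 10.6-fold and 8.18-fold. Their signal in Triple lay between those of the other arrays. Ciita, the master regulator of these genes, was within 2-fold of CpG, with signals of 114, 258, and 63.3 from a probe whose only spot lay in the first 48 rows. Of 18 genes of MHC class I loading and the immunoproteasome, 9 were higher and 0 lower (median 1.21), including the peptide transporter Tap1 (5.86-fold), the class I regulator Nlrc5 (5.46-fold), and the proteasome subunit Psmb9 (3.78-fold). The heavy chains H2-K1 (0.38, log2) and H2-D1 (0.43) and the light chain B2m (0.15) stayed within 2-fold on probes that were bright with CpG. On chromosome 17, 13 increased genes from Daxx to H2-Eb1 lay between 34052404 and 34453134 (mm9), a span with 27 measured gene symbols. This span, too, was drawn around the increased genes, so that the share is a description. Daxx, which sets its start, was close to the threshold (1.03, log2).

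Of 16 costimulatory and checkpoint genes, 9 were higher and 0 lower (median 2.18), including Slamf8 (47.2-fold) and Cd83 (7.66-fold). Cd40, a receptor for helper T cell signals, had signals of 1451 with CpG, 4777 after IFN-γ + αIL-10R, and 45468 in Triple (32.6-fold). Cd86, a ligand of CD28, rose 19.3-fold, and here IFN-γ + αIL-10R gave the higher signal (8762, against 7462 in Triple). Cd40 was thus brightest in Triple and Cd86 was not. Cd274, which encodes the inhibitory ligand PD-L1, rose 8.69-fold to 77642, while Cd80, the other ligand of CD28, did not differ by more than the technical SD (−0.03, log2). Ido1, an enzyme that degrades tryptophan, was measurable only in Triple (176).

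**Figure D3:**
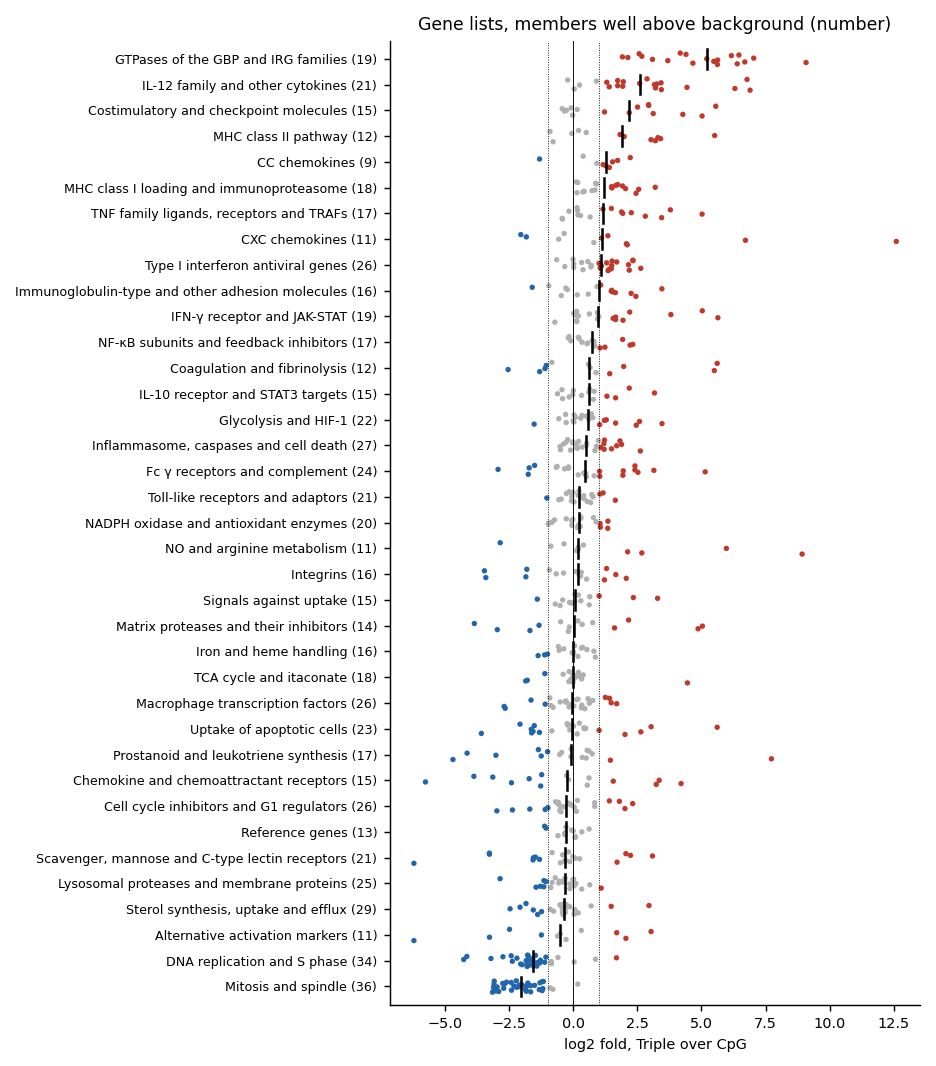
Log2 fold of Triple over CpG for the members of 37 gene lists that were well above background on at least 1 of both arrays, whose number stands beside each list. Each point is 1 gene (red, increased; blue, decreased; grey, neither), black bars are medians, and dotted lines mark the 2-fold threshold; the GTPases have the highest median (5.21) and the mitosis list the lowest (−2.05).

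Chemokines and cytokines that were higher in Triple differed in their signal without CpG. Of 13 CXC chemokines, 6 were higher and 2 lower, and of 13 measured CC chemokines, 6 were higher and 1 lower. Cxcl10, a ligand of the same receptor as Cxcl9, had signals of 2738, 142968, and 277273 for CpG, IFN-γ + αIL-10R, and Triple. The third ligand of this receptor, Cxcl11, did not pass the threshold (−0.57, log2, with a further probe at 0.39), with 139598 for CpG. The monocyte chemokines Ccl2 (2.65-fold), Ccl7 (2.9-fold), and Ccl12 (4.67-fold) were higher in Triple, whereas Pf4, or Cxcl4 (4.13-fold), Cxcl14 (3.56-fold), and Ccl9 (2.49-fold) were lower.

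In the list of IL-12 family and other cytokines, 17 of 26 members were higher and 0 lower (median log2 fold 2.59). Il12b, the p40 subunit shared by IL-12 and IL-23, had signals of 71.8 with CpG and 8242 in Triple, averaged over 10 spots each, and was not well above background with IFN-γ + αIL-10R. Il6 rose 79.1-fold, from 319 to 24279, and Il1b 21.6-fold, from 1445 to 30090.1. Without CpG none of these 3 genes was well above background, and all were far brighter in Triple than with CpG alone. Tnf, already bright with CpG (15636), rose 6.01-fold, and Il27 rose 10.8-fold. Inhibitors rose too, with 8.99-fold for Il1rn, the IL-1 receptor antagonist, and 9.56-fold for Il18bp, which neutralizes IL-18. The other subunits that pair with the products of Il12b and Il27 gave no such difference, since Il12a and Il23a were well above background on neither array and Ebi3 stayed at 0.04 (log2). Il10 itself was 3.32-fold higher in Triple, with signals of 3117, 1271, and 9957 (10 spots per array).

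Of 16 measured genes of the IL-10 receptor, at which the antibody is directed, and of its STAT3 targets, 4 were higher and 0 lower (median 0.61), beside 4.08% higher over all genes. These were Il1rn, Pdcd1lg2 (4.55-fold), Socs3 (3.14-fold), and Nfil3 (2.48-fold). Socs3, a feedback inhibitor that STAT3 induces, had a signal of 17358 with CpG and 52485 in Triple. The receptor chains Il10ra (0.79, log2) and Il10rb (−0.42) and the STAT3 target Bcl3 (−0.16) were within 2-fold.

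Tlr9, the sensor of CpG, and its adaptor Myd88 stayed within 2-fold. Of 22 Toll-like receptors and adaptors, 3 were higher (Tlr6, Irak2, and Ticam2) and 1 was lower (Tlr13), and the median was 0.23. Tlr9 had signals of 1473, 2566, and 1887 for CpG, IFN-γ + αIL-10R, and Triple, and Myd88 of 19287, 21660.0, and 24571. Of 18 measured NF-κB subunits and inhibitors, 5 were higher and 0 lower, among them Nfkbie (5.00-fold) and Tnfaip3, or A20 (3.8-fold), which both limit NF-κB signaling. TNF family ligands, receptors, and TRAF adaptors were higher for 9 of 17 measured members and lower for 0, with Traf1 13.8-fold and Fas 3.69-fold higher.

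**Figure D4:**
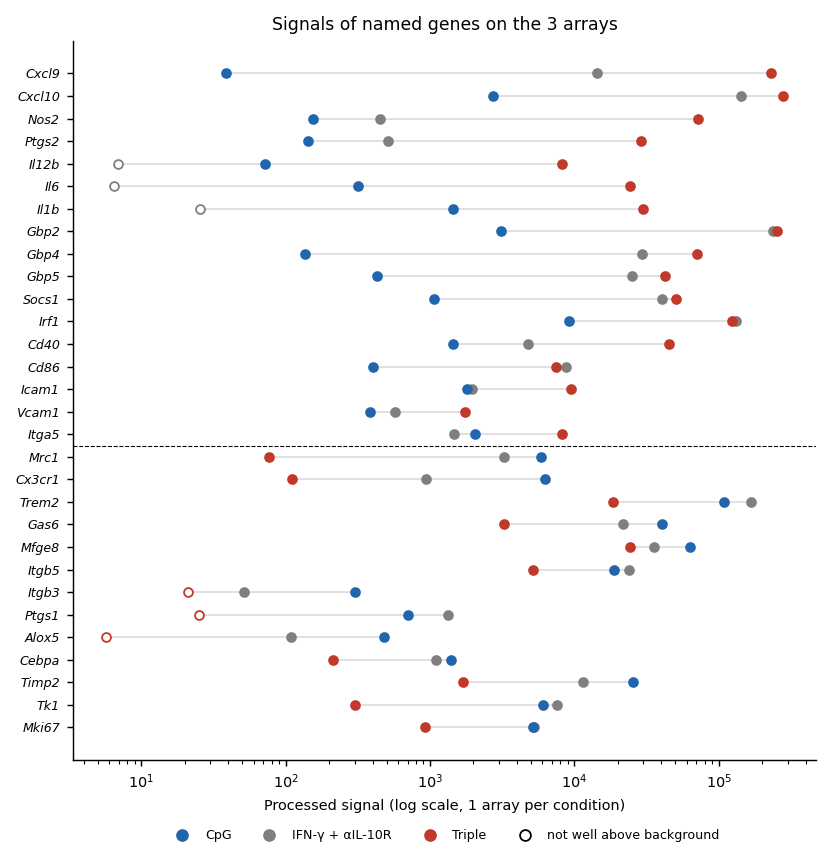
Processed signals (log scale) of 30 genes named in the text, with 1 point for each array; open points were not well above background. Above the dashed line are genes increased and below it genes decreased in Triple over CpG; Gbp2, Irf1, and Cd86 have nearly the same signal with IFN-γ + αIL-10R as in Triple, whereas Nos2, Ptgs2, Il6, and Icam1 are far brighter in Triple than on either other array.

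Enzymes that make mediators moved in opposite directions within the same pathway. In the NO and arginine list, 4 of 12 measured members were higher and 1 lower. Besides Nos2, these were transporters and enzymes that supply arginine or compete for it, Slc7a2 (at least 62.8-fold), Ass1, which rebuilds arginine from citrulline (6040.3 with CpG, 25284 in Triple, 4.35-fold), and Arg2, an arginase (at least 6.38-fold). Arg1 was well above background on neither array, and Ddah2, which degrades inhibitors of NO synthases, was 7.21-fold lower. Among 17 measured genes of prostanoid and leukotriene synthesis, 2 were higher and 6 lower (median −0.090). Ptgs2 rose while Ptgs1, the constitutive cyclooxygenase, fell at least 25.9-fold, with signals of 709 for CpG and 1337 for IFN-γ + αIL-10R and no signal well above background in Triple. Alox5, the 5-lipoxygenase of leukotriene synthesis, fell at least 17.7-fold, and Hpgd, which inactivates prostaglandins, at least 8.1-fold. Ltc4s, the leukotriene C4 synthase, was just past the threshold, with 1071 for CpG and 514 in Triple. Pla2g4a, which releases arachidonic acid, rose 2.73-fold, and Ptges, a prostaglandin E synthase, stayed at 0.51 (log2) on its brightest probe, while a further probe gave 5.09. The only spot of Ptgs1 lay in the first 48 rows, where single-spot genes were called decreased in 5.56% of cases, against 4.37% elsewhere.

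Metabolic lists held single strong changes. Acod1 (Irg1 on the array), which makes itaconate from a TCA cycle intermediate, rose 21.9-fold, with signals of 11599, 21684, and 244379 (10 spots per array), and was the only increased gene of 18 measured members of its list. Idh1 (3.62-fold), Idh2 (3.46-fold), and Mdh1 (2.16-fold), dehydrogenases that use isocitrate or malate, were lower. Of 24 measured genes of glycolysis and HIF-1, 7 were higher and 1 lower, with Slc2a6, a sugar transporter of the GLUT family (8774 with CpG, 92999.5 in Triple), and the hexokinase Hk3 (6.00-fold) in front, while Gapdh (0.09, log2) and Ldha (0.03) stayed where they were. Sterol genes were higher for 2 and lower for 6 of 30 measured members, beside 4.08% and 4.55% over all genes. The increases were Ch25h, which makes 25-hydroxycholesterol (7.74-fold), and Nr1h3, or LXRα (2.79-fold). Abca1 (4.22-fold), an exporter of cholesterol, and Lpl (3.59-fold), lipoprotein lipase, were among the decreases.

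Adhesion molecules were of interest as candidate receptors for live cells. Of 21 immunoglobulin-type and other adhesion molecules, 8 were higher and 1 lower (median 1.00). Icam1, the ligand of the integrin LFA-1, had signals of 1803 with CpG, 1955 after IFN-γ + αIL-10R, and 9420.5 in Triple, and Vcam1, the ligand of VLA-4, 383, 575, and 1759 (a further probe gave 1.23 on the log2 scale). For Icam1 the arrays without the full cotreatment were close to each other, and Triple was 5.43-fold above CpG. Pecam1 rose 3.12-fold from a dim signal (82.9). F11r, or JAM-A (2.91-fold), Mcam (2.83-fold), Alcam (2.79-fold), and Pvr (2.1-fold) were also increased, and Cd34 was lower. Icam2 (−0.47, log2) and Icam4 (0.16) did not follow Icam1.

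Integrins split evenly, with 4 higher and 4 lower of 24 members, and 8 that were well above background on neither array. Itga5, the α chain of VLA-5, rose 4.19-fold from 2046 to 8244, and its partner Itgb1 stayed at 0.31 (log2). Itgal, the α chain of LFA-1, rose 3.16-fold to 27495, with further probes at 0.70 to 1.59 (log2), and Itgb7 rose 2.46-fold. On the other side, Itgb5 fell 3.51-fold, from 18808 to 5153, Itgb3 at least 11.1-fold, and Itga6 10.7-fold. The decreases of Itgb3 and Itga6 rest on their brightest probe, since a further probe of each, at 0.19 and 0.10 (log2), showed none. Itgav, which pairs with β3 and β5, stayed at 0.23, with signals of 399 and 451. Itga1 and Itga8 were dim members that passed the threshold in opposite directions.

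In the list for uptake of apoptotic cells, 5 of 26 members were higher and 7 lower (median −0.056), and receptors and bridging molecules went in different directions. Bridging molecules connect phosphatidylserine on dying cells to receptors of the phagocyte. Gas6 fell by 3.59 on the log2 scale, with signals of 40574, 21687, and 3249 for CpG, IFN-γ + αIL-10R, and Triple, Pros1 fell 3.08-fold, and Mfge8 fell 2.5-fold, from 63047 to 24291. All 3 were lowest in Triple. Of their receptors, Mertk, which binds Gas6 and protein S, rose 4.05-fold, from 812 to 3164, and Axl stayed at 0.15 (log2). Thbs1, or thrombospondin 1 (49.0-fold), the crosslinking enzyme Tgm2 (8.2-fold), Timd4, or TIM-4 (at least 6.22-fold), and Cd300lf (2.01-fold) were the other increases. Lrp1 (3.11-fold), Stab1 (2.97-fold), Dock1 (2.87-fold), and Abca1 were the other decreases. Rac1, the GTPase that drives engulfment, differed by less than the technical SD (−0.06, log2), with signals from 34582 to 37382. In a list of 15 genes named for signals against uptake, Slamf7 (5.07-fold), Cd200 (9.77-fold), and Cd300lf were higher and Cd200r1 (2.64-fold) was lower. Cd47 (0.62, log2) and its receptor Sirpa (−0.51) stayed within 2-fold. The name of this list does not give the role of each member, such as Slamf7, and Cd300lf stands in both lists.

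The largest decreases included those of surface receptors. Mrc1, the mannose receptor, had signals of 5909.6 with CpG, 3274 after IFN-γ + αIL-10R, and 76.4 in Triple, a 74.4-fold decrease. Cx3cr1, the receptor for fractalkine, had 6279, 940.0, and 111 (54.4-fold lower), and a further probe gave −5.32 (log2). Both genes could be measured on each array and were lowest in Triple. The others among the 15 largest measured decreases were Rnf150 (64.1-fold), Pcp4l1 (54.3-fold), Nxpe5 (34.0-fold), St6gal1, a sialyltransferase (20.3-fold), Ndrg1 (20.1-fold), Dab2, an adaptor of endocytosis (19.6-fold), Tk1 (19.4-fold), Rgs18 (18.3-fold), E2f7 (17.8-fold), Rnase4 (16.1-fold), Ptchd1 (15.6-fold), Cbr2 (15.4-fold), and Ier5l (14.6-fold). Ndrg1 differed from the others in order, since its signal was 90540.1 with CpG, 615 after IFN-γ + αIL-10R, and 4333 in Triple. Further probes of Rnf150 ranged from −2.34 to −0.44 (log2), and a further probe of Ptchd1 gave −1.94. Among genes that were not well above background in Triple, the largest bounds were those of Olfr1286 (at least 31.9-fold), an olfactory receptor whose probe was measurable only with CpG, Ptgs1, Cmbl (at least 20.9-fold), Fam198b (at least 20.4-fold), Lyzl4 (at least 18.8-fold), Alox5, Grik5 (at least 16.6-fold), and Rasgrp3 (at least 16.6-fold), an activator of Ras and Rap GTPases.

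Receptors of endocytosis and chemotaxis were split between strong decreases and increases. Of 27 scavenger, mannose, and C-type lectin receptors, 4 were higher and 7 lower (median −0.34). Clec10a (9.64-fold) and Cd207, or langerin (at least 9.67-fold), were lower together with Mrc1, while Clec4e, or Mincle, which senses mycobacterial glycolipid, rose 8.52-fold from 8215 to 67349, and Marco rose 3.27-fold. Of 19 measured chemoattractant receptors, 4 were higher and 7 lower, with increases of Ccr7, which guides cells to lymph nodes (9.42-fold), and of the formyl peptide receptor Fpr2 (10.2-fold), and with decreases of Cxcr4 (5.32-fold), S1pr1 (8.82-fold), and C5ar1 (3.3-fold). Markers of alternative activation were lower for 4 and higher for 3 of 20 members. The largest increase of this list was that of Tgm2 (8.2-fold). Trem2 fell 5.6-fold, from 108474 to 18619, and 9 members, among them Arg1 and Retnla, were well above background on neither array. Of 26 measured macrophage transcription factors, 4 were higher and 4 lower. Cebpa (6.3-fold), which acts in myeloid differentiation, was among the decreases, and Spi1 (Sfpi1 on the array), which encodes PU.1, stayed at 0.45 (log2).

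Of the 37 lists, those of cell division had the largest shares of decreased genes. Of 35 genes of DNA replication and S phase, 28 were lower and 1 higher in Triple (median log2 fold −1.58), and of 38 genes of mitosis and the spindle, 33 were lower and 0 higher (median −2.05). Over all genes 4.55% were lower. Tk1, the thymidine kinase of S phase, had signals of 6098 with CpG, 7546 after IFN-γ + αIL-10R, and 303 in Triple, and Rrm2, a subunit of ribonucleotide reductase, 10983, 14975, and 1141. Mki67, which marks cycling cells, had 5178, 5297, and 928. In all 3 genes Triple stood apart, and the signal with IFN-γ + αIL-10R was at or above that with CpG. Over the list of mitosis genes the median signal was 1271 with CpG, 1510.2 after IFN-γ + αIL-10R, and 261 in Triple, and over the DNA replication list 3877, 4434, and 920.4. Helicase subunits fell moderately, such as Mcm5, whose start site is printed above (2.83-fold), and so did the sliding clamp Pcna (2.17-fold), whereas Ccna2, or cyclin A2 (8.9-fold), and the mitotic kinase Plk1 (8.17-fold) fell further. The transcription factors of this program were lower as well, with E2f1 (2.09-fold), E2f2 (6.7-fold), and Foxm1 (6.09-fold, with a further probe at −0.96 on the log2 scale), and with the repressors E2f7 and E2f8 (3.37-fold).

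The exception was Ccne1, or cyclin E1, which acts at the entry into S phase and rose 3.21-fold, from 4864 to 15043. Regulators of G1 were mixed, with 4 of 27 higher and 5 lower. Ccnd2 rose 4.05-fold and Ccnd1 fell 3.24-fold, Cdkn1c (7.89-fold) and Cdkn2c (5.18-fold), both inhibitors of cyclin-dependent kinases, were lower, and Cdkn1a, or p21, stayed at −0.48 (log2, 10 spots per array). Histone genes were looked at after their values were seen, and are described only within a run of decreased neighbours. On chromosome 13, 10 decreased genes, 8 of them histone genes of the Hist1 cluster, lay between 23626113 and 23883346 (mm9) among 22 gene symbols. This span was drawn around the decreased genes, so that the share is a description, and no count over all histone genes is given. In RNA of whole cultures, fewer cycling cells and less of these transcripts in each cell cannot be told apart.

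**Figure D5:**
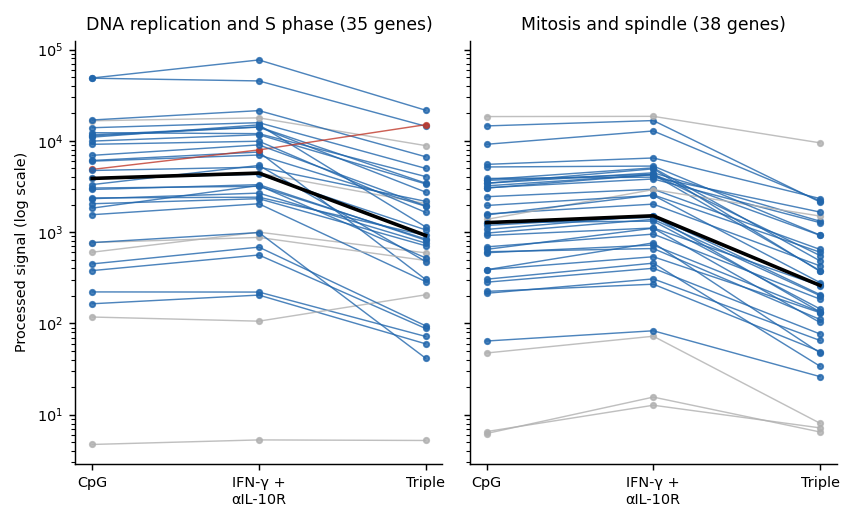
Processed signals (log scale) of the measured members of the lists of DNA replication and S phase (35 genes) and of mitosis and spindle (38 genes) on the 3 arrays. Each line is 1 gene (blue, lower in Triple than in CpG; red, higher; grey, neither), and the black line is the median; nearly all lines fall only in Triple, and the red line is Ccne1.

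Secreted and lysosomal proteins showed further single changes. Complement and Fc receptor genes were higher for 9 and lower for 4 of 25 members. Complement C3, already bright with CpG (79788), rose 3.87-fold, factor B (Cfb) rose 5.3-fold, and C1s at least 35.4-fold. Of 19 matrix proteases and inhibitors, 4 were higher and 4 lower, and the collagenase Mmp13 rose 29.2-fold while the inhibitor Timp2 fell 14.5-fold, from 25411 to 1685 (a further probe gave −1.55 on the log2 scale). Among 20 genes of coagulation, Procr, the receptor of activated protein C, rose 45.4-fold from 1418 to 61886, and Thbd, thrombomodulin, fell 5.83-fold. Procr was near the CpG level with IFN-γ + αIL-10R (1232). Lysosomal genes were lower for 6 and higher for 1 of 25 measured members, with Atp6v0d2 (7.24-fold), a subunit of the proton pump, lowest, and Lamp1 at −0.14 (log2). Iron genes were lower for 3 and higher for 0 of 19 measured members, the NADPH oxidase and antioxidant list was higher for 4 and lower for 0 of 20, and the list of inflammasome, caspase, and cell death genes was higher for 9 and lower for 0 of 28 measured members, with Nlrp3 6.14-fold higher.

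The cells were labelled as macrophages, and all 9 measured macrophage markers were well above background with CpG and in Triple, their summed signal was 767561 and 717963, and only Mertk passed the threshold. Markers of other cell types were measurable in part. Of the 8 T cell markers, 4 were well above background on both arrays (Cd3e, Cd4, Lck, and Cd28) and 4 on neither, among them Cd3d, Cd3g, and Cd8a, and Cd28 was lower in Triple (13.7-fold). Of the 7 B cell markers, Cd79a and Cd79b were well above background on both arrays, Cd79b was lower (7.15-fold), and the other 5, Ms4a1 and Pax5 among them, were on neither. Of the 6 NK cell markers, Prf1 was within 2-fold, Klrk1 was higher (at least 3.84-fold, 568 with IFN-γ + αIL-10R), and the other 4 were on neither array well above background. Of 6 measured fibroblast markers, Lum was higher (at least 6.46-fold, only spot in the first 48 rows), 3 collagen genes were within 2-fold, and 2 were measurable on neither array. Of 5 measured endothelial markers, Kdr was within 2-fold (0.15, log2, with a further probe at 2.85), Cdh5 was dim, and 3 were measurable on neither array. Of 6 red cell markers only Epor was measurable, and it was lower (at least 3.98-fold), and of 5 measured mast cell markers only Tpsb2 was, within 2-fold. Of 10 neutrophil markers, Ly6g was higher (4.98-fold, 7699 with IFN-γ + αIL-10R) and S100a9 lower (at least 2.12-fold). S100a8, Elane, and Camp were within 2-fold, and 5 were well above background on neither array. The summed signal of the 10 markers was 3871 with CpG and 4897 in Triple. Ly6g alone went from 555 to 2658, and Elane went from 2839 to 1539. Of the dendritic cell markers, Ccr7, Zbtb46 (at least 5.5-fold), and Xcr1 (at least 2.66-fold) were higher, Siglech (−0.22, log2) and Itgax (−0.38) were within 2-fold, and Flt3 and Cd209a were well above background on neither array; the part of these markers in other differences was not tested. Of 13 measured reference genes, Actb (0.07), Gapdh, and 9 others were within 2-fold, and Gusb and Tfrc were lower.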

How the data were processed

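Total RNA of each culture was labelled with Cy3 and hybridised to an Agilent SurePrint G3 Mouse 8 × 60K array. All 3 arrays were on 1 slide and were scanned at 1 time. The files deposited by the authors hold, per the file headers, what Agilent Feature Extraction (version 10.10.1.1) gave for each spot, background-subtracted processed signals, which are intensities not normalized between arrays, with probe coordinates of mm9. The authors also deposited a log2 table of processed values, which was used as an alternative. Depth has no counterpart on arrays; between 44.4% and 46.0% of spots were well above background, and the number of arrays limits the precision.

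Control and outlier spots were left out, log2 signals were averaged per probe and shifted by the 75th percentile over 21233 probes well above background on all arrays, and each gene was represented by its brightest probe. A dim signal was raised to the lowest signal well above background. Python 3.11.15, numpy 2.4.6, pandas 2.3.3, R 4.3.3, and limma 3.58.1 (for normexp) were used, and the scripts were tested on simulated data. Named genes were the 15 largest measured changes and the 8 largest bounds in each direction, members of 37 lists (740 of 767 genes measured), and genes that the study named. The members and lists were chosen with earlier results of these data known. Medians of lists are over members well above background on at least 1 of both arrays. RefSeq records were found for 27509 of 29150 probes with a RefSeq accession. The alternatives were other background corrections, scalings, filters, probe choices, and thresholds. Values of some genes are not reported here.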

Additional observations from a re-analysis of the deposited data

How the results depend on the processing

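The counts of 1370 increased and 1529 decreased genes were recomputed under 18 alternatives and kept within 1.5-fold of these values except under 5 of them. With normexp background correction and an offset of 50, which shrinks the folds of dim genes, 941 genes were higher and 916 lower. Without a filter on dim probes and without the lower limit, 2767 were higher and 3022 lower. With RefSeq mRNA probes only, 908 were higher and 1222 lower, since fewer genes were tested. A threshold of 1.5-fold gave 2619 and 3017 genes, and a threshold of 3-fold 706 and 701. The share of increases among all called genes, 47.3% as reported, was 40.7% when scaled to the 5 of 10 spike-in probes well above background and at most 51.5% (median scaling), and the median log2 fold over genes well above background on both arrays went from −0.14 to 0.02. Of 191 genes named here that passed 2-fold, 176 passed it in each of 13 alternatives, and no named gene past 2-fold changed sign. Those that did not always pass were close to the threshold, such as Ltc4s, Cd300lf, Gusb, and Tlr13, or dim, such as Cd34, Cxcl14, Itga1, Itga8, Klrk1, and Xcr1. The 13 alternatives did not take each probe by itself, so that disagreement between probes, as for Itgb3 and Itga6, was not fully covered. List medians kept their sign in all 13 alternatives for 29 of 37 lists, and of the others only that of the alternative activation markers was past 0.5 (−0.60 to 0.16). The mitosis median ranged from −2.15 to −1.71 and that of the GTPases from 4.42 to 5.27. No paired analysis was possible because there was only 1 array for a condition, and for the same reason no array could be left out. Differences between cultures, RNA preparations, and array positions cannot be told apart from those of the treatments.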

Other observations

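Genes of the Ly6 family, small proteins anchored in the cell membrane, were higher in Triple than in CpG as neighbours on chromosome 15. Between 74627529 and 75102522 (mm9), 6 of 10 measured gene symbols were increased. Ly6a, known as Sca-1, had signals of 18139 with CpG, 197727 after IFN-γ + αIL-10R, and 86668 in Triple, and Ly6i had 106, 109, and 2179. Ly6a was thus brightest without CpG, and Ly6i was bright only in Triple. Ly6g, which is also a neutrophil marker, lies in the same span. Ly6 genes are similar in sequence, and their probes may share transcripts.

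In all, 20 runs of at least 4 increased and 18 runs of at least 4 decreased genes, with neighbours within 200 kb of each other, were found. They were drawn around the calls, and no test was made of their number. On chromosome 19 between 10109886 and 10319825 (mm9), 6 of 8 gene symbols were lower, among them the fatty acid desaturase genes Fads1 (1620.3 with CpG, 1999 after IFN-γ + αIL-10R, 651 in Triple) and Fads3 (358, 213, and 106). On chromosome 19 between 29387487 and 29545529, Jak2, Cd274, Pdcd1lg2, and 2 genes between them were higher, which made 5 of 6 gene symbols.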
